A study of Mus musculus with 6 samples.

Results

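The genes examined, 7 in number, are hosts of small nucleolar RNAs (snoRNAs), namely Gas5, Snhg1, Snhg3, Snhg5, Snhg6, Snhg8 and Snhg12. They were chosen by symbol from 24063 gene symbols in the count files, with earlier results of these data known. All 7 were among the 14145 genes that passed the filter on low counts. The libraries came from LSK cells, the lineage-negative Sca-1+ c-Kit+ fraction of mouse bone marrow that contains haematopoietic stem and multipotent progenitor cells. There were 3 libraries of Asxl2-/- LSK cells and 3 of wild type LSK cells from mice on the C57BL/6 strain. Both groups carried Mx1-cre, an interferon-inducible recombinase that also acts outside the blood, and both had received polyinosinic:polycytidylic acid (pIpC), the agent that induces it. In the Asxl2-/- mice the floxed exon 11 of Asxl2, which encodes a Polycomb-associated chromatin protein, was thereby removed. The cells were CD45.2+ and were sorted 4 weeks after pIpC, and the ages of the mice are not given in the sources used here.

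A snoRNA host gene is transcribed by RNA polymerase II and spliced, and its snoRNAs are trimmed out of the excised introns. Box C/D snoRNAs guide 2′-O-methylation and box H/ACA snoRNAs guide pseudouridylation of ribosomal and small nuclear RNAs. The spliced exons of the noncoding hosts have little coding potential, and several are degraded by nonsense-mediated decay when they are translated. Gas5 is known for accumulating in growth-arrested cells and for binding the glucocorticoid receptor. Many host genes have terminal oligopyrimidine starts, a class of transcript whose translation is controlled by mTOR signalling.

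The start regions of the host genes are shown first so that this start type can be looked for in them. RefSeq promoters were found for 6 of the 7 genes, all but Snhg6, and are given from 50 bases before the start to base 30 of the transcript on the GRCm38.p6 (mm10) assembly, 5′ to 3′ on the gene's strand. Capitals mark a TATANA motif, searched on the gene's strand with its first base between positions -45 and -15, and a C followed by at least 4 pyrimidines, with its first base between positions -10 and 10.
Gas5, chr1:161035116-161035195, plus strand: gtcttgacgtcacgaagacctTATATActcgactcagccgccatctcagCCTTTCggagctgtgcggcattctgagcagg
Snhg1, chr19:8723437-8723516, plus strand: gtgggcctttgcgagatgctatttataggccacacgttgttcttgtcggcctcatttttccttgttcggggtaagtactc
Snhg3, chr4:132353657-132353736, minus strand: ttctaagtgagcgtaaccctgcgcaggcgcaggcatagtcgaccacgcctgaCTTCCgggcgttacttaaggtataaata
Snhg5, chr9:88522868-88522947, minus strand: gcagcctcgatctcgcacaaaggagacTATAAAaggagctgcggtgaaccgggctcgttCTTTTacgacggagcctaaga
Snhg8, chr3:123508307-123508386, minus strand: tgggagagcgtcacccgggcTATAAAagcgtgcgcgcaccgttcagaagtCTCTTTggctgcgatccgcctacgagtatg
Snhg12, chr4:132308628-132308707, plus strand: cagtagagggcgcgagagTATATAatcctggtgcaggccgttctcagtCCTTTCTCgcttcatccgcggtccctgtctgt

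The pyrimidine run was present in 5 of the 6 promoters, and 29.7% of 32817 RefSeq mouse promoters held it in the same window. Its first base was at position 1 in Snhg8 only, and at -1 in Gas5, -2 in Snhg12, 3 in Snhg3 and 10 in Snhg5. TATANA was present in 4 of the 6, those of Gas5, Snhg5, Snhg8 and Snhg12, and in 3.69% of all promoters. Neither search matched in the Snhg1 window, whose letters hold other T- and C-rich runs. These matches describe the letters of the windows only, and no binding or start-site data were analysed here.

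On the mm10 build, each host gene had a single transcript in the count files. Gas5 (NR_002840) lay at chr1:161035166-161038537 with 4 exons, the first of them 2382 bases long. Snhg1 (NR_002896) lay at chr19:8723487-8726326 and had 10 exons. Snhg3 (NR_003270) at chr4:132351933-132353686 had 3 exons, and Snhg12 (NR_029468) at chr4:132308678-132311024 had 5 exons on the same chromosome. The other entries were Snhg5 (NR_040721) at chr9:88521053-88522897 with 5 exons, Snhg6 (NR_024067) at chr1:9942025-9944118 with 4 exons, and Snhg8 (NR_028574) at chr3:123507552-123508336, listed as 1 exon. No exon base of these genes was shared with another listed gene, except that 130 bases of Snhg8, 16.6% of its length, were also the snoRNA gene Snora24.

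The counts per library totalled 25528540 to 55032075 in the Asxl2-/- group and 29136012 to 53280796 in the wild type group. The count files were of 2 kinds. Asxl2-/- replicates 1 and 3 and wild type replicate 2 had 1 count per transcript (gene-count files), whereas Asxl2-/- replicate 2 and wild type replicates 1 and 3 had 1 count per exon (exon-count files). When exon counts are summed, a spliced read can be counted in every exon it touches. The file kind was therefore a term in the model, and values within each kind are given beside the pooled ones. In the exon-count files, Asxl2 exon 11 took 0.583% of the Asxl2 counts in Asxl2-/- replicate 2 (28 of 4804, 95% Wilson interval 0.404 to 0.841), against 10.3% and 11.99% in wild type replicates 1 and 3. Intervals on counts cover counting error only, because PCR copies were not marked. The groups also differed in sex-linked RNA. Xist had 49540 to 66689 counts in the Asxl2-/- libraries and 590 to 3194 in the wild type libraries, and Uty, Kdm5d, Ddx3y and Eif2s3y of the Y chromosome summed to 1 to 5 and 6567 to 12718 counts, so genotype and sex cannot be told apart. The labels name triplicates without saying whether each is 1 mouse, and the p-values measure only the spread between these libraries.

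None of the 7 host genes passed an adjusted p of 0.05 between Asxl2-/- and wild type LSK cells, and all 7 had a negative log2 fold change, that is, a lower fitted level in the Asxl2-/- group. The signs of Gas5 and Snhg8 depended on the processing: Gas5 was positive with library size alone as the scale (0.0030), without a term for file kind (0.019), in gene-count libraries (0.089) and without Asxl2-/- replicate 2 (0.108), and Snhg8 was at 0.013 without the file-kind term. Snhg5, Snhg3 and Snhg12 had the most negative values, -0.51, -0.50 and -0.45, and Gas5 the value nearest to 0, -0.10. Of all tested genes, 2.34% passed the threshold, 0.304% as lower in Asxl2-/- and 2.04% as higher, and 49.9% had a negative log2 fold change. The median log2 fold change of the host genes was -0.21, and that of all tested genes was 0.00052. At an unadjusted p of 0.05 in the edgeR quasi-likelihood test, 3 of the 7 were lower, against 12.6% of all genes. With the library size alone as the scale, which moved the median of all genes by 0.10, the host genes had a median of -0.11 and 6 of 7 were negative. By DESeq2, an alternative test on the same counts, 2 of the 7 were called lower, Snhg3 (adjusted p = 0.0287) and Snhg12 (0.014), against 7.97% of all genes. Since the libraries are bulk RNA, fewer cells that express a gene and less RNA per cell cannot be told apart.

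Levels differed among the host genes by several fold when set per transcript length. In the 3 gene-count files, where a read is not counted per exon, Snhg1 had the highest level, with 336.6 and 398.7 CPM (counts scaled to library size with TMM factors) per kb in Asxl2-/- replicates 1 and 3 and 367.9 in wild type replicate 2. Gas5 followed with 257.6, 311.3 and 263.9 CPM per kb in the same libraries. The order of these 2 genes depends on the transcript length used. Exon 1 holds 2382 of the 2554 bases of Gas5 but took 67.3% to 69.2% of its counts in the exon-count files. Before division by length, Gas5 had 657.8, 795.1 and 674.0 CPM and Snhg1 had 160.2, 189.8 and 175.1 CPM in the same libraries. Both stood above at least 98.6% of tested genes on the scale per kb. Snhg5 (126.7 ± 25 CPM per kb, SD, n = 3 libraries over both groups), Snhg3 (102.0 ± 23.5) and Snhg6 (93.6 ± 6.63) came next, and the ranges of neighbouring genes overlapped. Snhg12 (75.3 ± 8.52) and Snhg8 (49.8 ± 3.38) were the lowest, and neither range overlapped that of its neighbours. Even Snhg8 lay above 87.7% of tested genes.

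**Figure D1:**
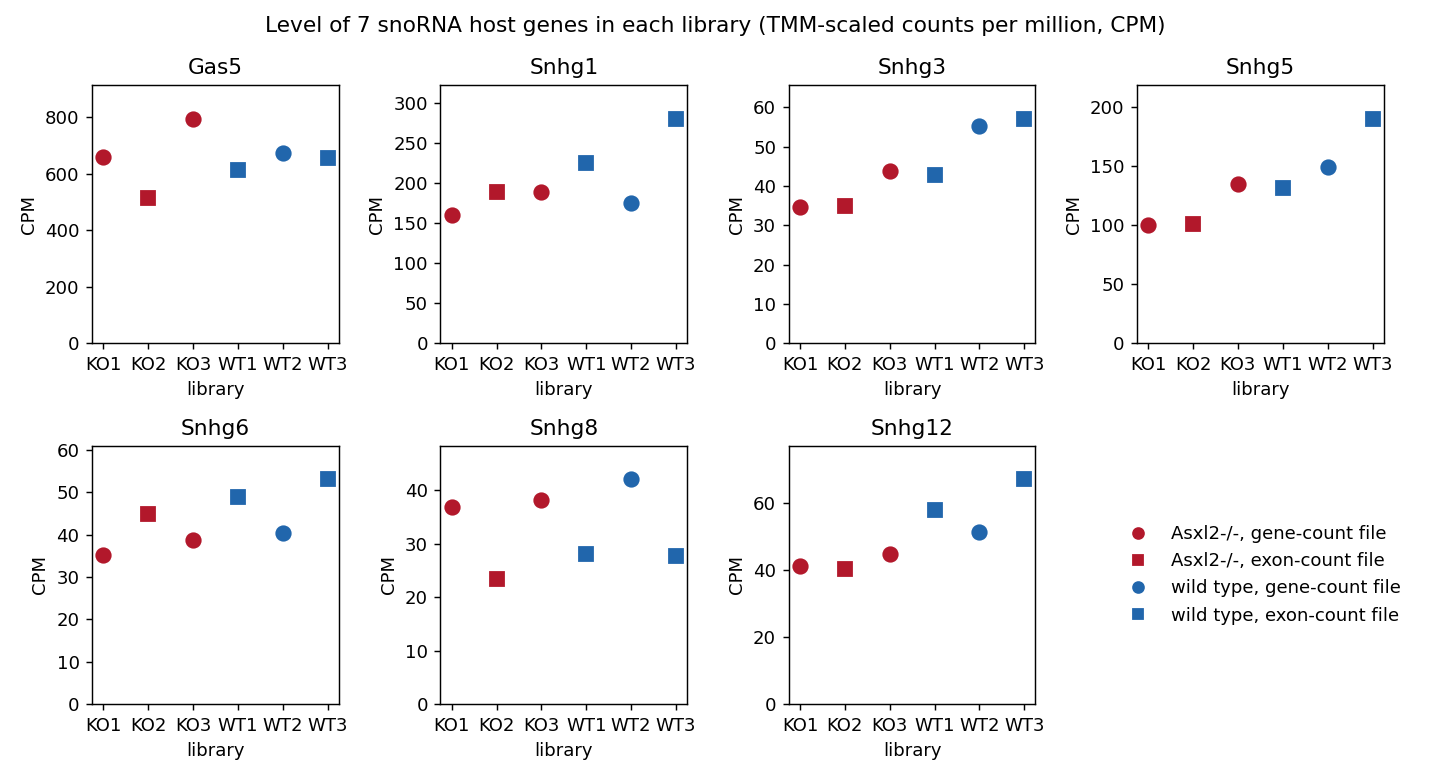
Level of each snoRNA host gene in each library, as TMM-scaled CPM (vertical axis, from 0) against library (KO, Asxl2-/-; WT, wild type; number, replicate); each point is 1 library, circles are gene-count files and squares exon-count files. In Snhg12 the 3 Asxl2-/- libraries lie between 40.2 and 44.6 CPM and the wild type libraries between 51.2 and 66.9 CPM. On this scale the groups overlap in Gas5, Snhg1, Snhg3, Snhg5, Snhg6 and Snhg8.

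Snhg12, the host of 4 listed snoRNAs, had the smallest p-value of the 7. Its TMM-scaled level was 41.1, 40.2 and 44.6 CPM in Asxl2-/- replicates 1, 2 and 3, and 57.9, 51.2 and 66.9 CPM in wild type replicates 1, 2 and 3. All 3 Asxl2-/- libraries were below all 3 wild type libraries, in both file kinds and without any correction for file kind. The fitted log2 fold change was -0.45 ± 0.126 (SE, n = 3 libraries per group, 95% interval -0.75 to -0.14), a level 26.6% lower, with an adjusted p of 0.100 in the edgeR quasi-likelihood test, and it ranged from -0.63 without wild type replicate 2 to -0.26 without Asxl2-/- replicate 2. The log2 fold change was -0.27 in gene-count and -0.62 in exon-count libraries.

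Snhg3, which lies on the same chromosome as Snhg12 and is known as the host of U17 snoRNAs, had 34.7, 35 and 43.9 CPM in the Asxl2-/- replicates. The wild type replicates had 42.7, 55.2 and 57.1 CPM. Only wild type replicate 1 and Asxl2-/- replicate 3 were out of order, and these came from different file kinds. The log2 fold change was -0.50 ± 0.155 (SE, n = 3 per group, 95% interval -0.88 to -0.12) with an edgeR adjusted p of 0.115, and within file kinds it was -0.51 (gene) and -0.49 (exon).

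In Snhg5, the host of U50 snoRNAs, known from a translocation with BCL6 in human lymphoma, the Asxl2-/- replicates had 99.99, 101.0 and 134.6 CPM. Wild type levels were 131.6, 149.2 and 189.8 CPM, so that the groups overlapped by 1 library of each. The log2 fold change was -0.51 ± 0.198 (SE, n = 3 per group, 95% interval -0.99 to -0.03), the largest spread among the 7, with an edgeR adjusted p of 0.166. Within file kinds it was -0.37 (gene) and -0.64 (exon).

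Snhg8, the host of Snora24, and Snhg6, the host of Snord87, had smaller differences with narrower errors. Snhg8 had 36.9, 23.5 and 38.2 CPM in the Asxl2-/- replicates and 28.1, 42.0 and 27.7 CPM in the wild type replicates, and the low values were those of the exon-count files in both groups. After the file-kind effect was removed, the mean was 4.90 ± 0.036 log2 CPM (SD, n = 3) in Asxl2-/- and 5.11 ± 0.027 in wild type, and the fitted log2 fold change was -0.20 (95% interval -0.42 to 0.01, edgeR adjusted p = 0.195), which turned to 0.013 without the file-kind term. Snhg6 had 35.1, 44.8 and 38.7 CPM in the Asxl2-/- replicates and 49.0, 40.4 and 53.0 CPM in the wild type replicates, with the exon-count files high in both groups. Its corrected means were 5.35 ± 0.071 and 5.51 ± 0.060 log2 CPM (SD, n = 3), and the log2 fold change was -0.16 (95% interval -0.38 to 0.06, edgeR adjusted p = 0.299). The correction was fitted on these same libraries, so the SDs given for both genes can understate the spread between libraries. Without it, the CPM of the groups overlapped in both genes.

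Snhg1, the host of the U22 family of snoRNAs, and Gas5 were the most abundant of the 7 and overlapped between groups. Snhg1 had 160.2, 189.4 and 189.8 CPM in the Asxl2-/- replicates and 225.8, 175.1 and 280.8 CPM in the wild type replicates. The wild type exon-count libraries were the highest, while the single wild type gene-count library lay between Asxl2-/- replicates 1 and 3. Its log2 fold change was -0.21 (95% interval -0.58 to 0.16, edgeR adjusted p = 0.398), with -0.02 in gene-count and -0.41 in exon-count libraries. It depended on single libraries, at -0.0012 without Asxl2-/- replicate 2 and -0.41 without wild type replicate 2.

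Gas5 had 657.8, 515.7 and 795.1 CPM in the Asxl2-/- replicates and 612.1, 674.0 and 656.6 CPM in the wild type replicates. Both the highest and the lowest library were Asxl2-/-. Its log2 fold change was -0.10 ± 0.137 (SE, n = 3 per group, 95% interval -0.43 to 0.24, edgeR adjusted p = 0.684), and it had opposite signs within file kinds, 0.09 (gene) and -0.29 (exon).

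After removal of the file-kind effect, the 3 Asxl2-/- libraries lay below the 3 wild type libraries in 5 of the 7 host genes, all but Gas5 and Snhg1, and such a split was seen in 20.8% of all tested genes. In the gene-count files alone, both Asxl2-/- libraries were below the wild type library in 5 of 7 (42.2% of all genes). In the exon-count files alone, the Asxl2-/- library was below both wild type libraries in 7 of 7 (38.0% of all genes), and the median log2 fold changes of the host genes were -0.17 and -0.41 in the 2 file kinds. Asxl2-/- replicate 3 had the highest corrected level of its group in all 7 host genes. Wild type replicate 3 had the highest of its group in 6 of 7, with Snhg8 the exception.

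**Figure D2:**
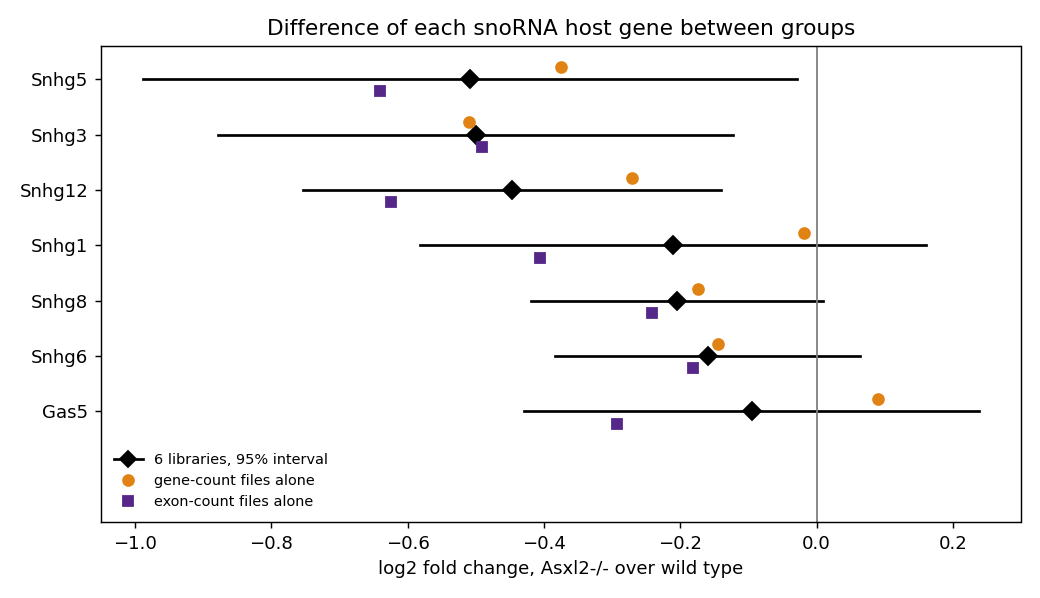
Log2 fold change of each host gene, Asxl2-/- over wild type (horizontal axis), with the fit over 6 libraries as diamonds with 95% intervals, the gene-count files alone as circles and the exon-count files alone as squares. All 7 diamonds are below 0, from -0.51 for Snhg5 to -0.10 for Gas5, which is at 0.0030 with library size alone as the scale, and the intervals of Snhg5, Snhg3 and Snhg12 do not reach 0 before adjustment for the number of genes tested.

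The size of the file-kind effect varied with the number of exons. The ratio of the mean raw count in the exon-count files to that in the gene-count files was 2.35 for Snhg1 with its 10 short exons. It was 1.21 for the single-exon Snhg8, 1.5 for Gas5, 1.78 for Snhg3, 1.94 for Snhg5, 2.14 for Snhg12 and 2.29 for Snhg6. These ratios are not scaled to library size, and the exon-count files had the larger totals. Most exon-count files are wild type and most gene-count files Asxl2-/-, so the ratios also hold any difference between the groups. On the CPM scale, Snhg8 was lower in the exon-count files (23.5, 28.1 and 27.7 CPM) than in the gene-count files (36.9, 38.2 and 42.0 CPM). Among all genes whose count reached 100 in each library, the raw-count ratio had a median of 1.13 for 250 genes of 1 exon, 1.37 for 1864 genes of 2 to 4 exons and 1.75 for 3944 genes of 5 to 10 exons.

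The exon-count files showed where along each host gene the counts fell. All 32 exons of the 7 genes had a lower CPM in Asxl2-/- replicate 2 than in both wild type libraries of that kind, with log2 ratios to the wild type mean from -0.72 for exon 3 of Snhg5 to -0.13 for exon 3 of Snhg6, exons being numbered along the chromosome. Exons of a gene share reads and the comparison has 1 Asxl2-/- library, so it has no replicate check. The exon count largely repeats the gene-level result in the same libraries, where all 7 genes were lower, as were 38.0% of all tested genes. The share over all exons was not examined. The division of counts among exons was close in the 3 libraries. Exon 1 of Gas5 took 67.3% of its counts in Asxl2-/- replicate 2 and 69.2% and 68.6% in wild type replicates 1 and 3, and it holds 2382 of the 2554 bases. The 48-base exon 3 took 12.9%, 12.1% and 12.3%. In Snhg1, the share of exon 2 was 7.58% in Asxl2-/- replicate 2 and 8.65% and 8.43% in the wild type libraries. Exon 1 of Snhg12 had 25.5%, 25.5% and 25.8% in the same order.

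**Figure D3:**
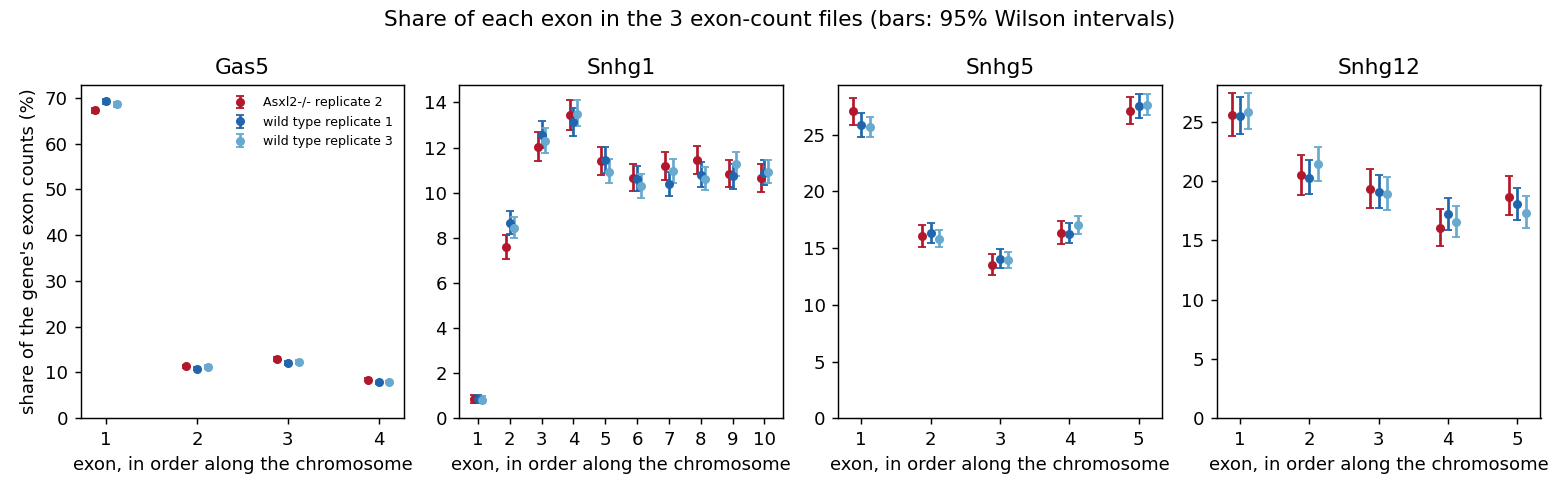
Share of each exon in the summed exon counts of its gene, in percent (vertical axis, from 0), against exon number along the chromosome, for Gas5, Snhg1, Snhg5 and Snhg12 in the 3 exon-count files; bars are 95% Wilson intervals for counting error. The 3 libraries lie close together in most exons, with exon 1 of Gas5 at 67.3% in Asxl2-/- replicate 2 and 69.2% and 68.6% in the wild type libraries.

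The count files listed 8 snoRNA genes within 5 of the host genes, 7 in introns and Snora24 in the exon of Snhg8; none was listed within Snhg3 or Snhg5. All 8 passed the filter and none passed an adjusted p of 0.05. Of these, 7 had a negative log2 fold change, with a median of -0.12. At an unadjusted edgeR p under 0.05, 1 of the 8 was lower, against 12.6% of all tested genes. The libraries were poly(A)-selected and size-selected, so counts at a snoRNA gene can come from host precursor RNA as well as from the snoRNA, and they do not measure the mature snoRNA.

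Snord47, a box C/D snoRNA in a Gas5 intron, had 519, 481 and 647 counts in the Asxl2-/- replicates and 556, 509 and 562 in the wild type replicates. Its log2 fold change was -0.05 (95% interval -0.48 to 0.39, edgeR adjusted p = 0.892), and its counts were 2.80%, 2.87% and 2.62% of those of Gas5 in the gene-count files of Asxl2-/- replicates 1 and 3 and wild type replicate 2. Snord22, in a Snhg1 intron, had 519, 648 and 778 counts against 778, 630 and 732, a log2 fold change of -0.13 (edgeR adjusted p = 0.707). Its counts were 11.5%, 14.5% and 12.5% of those of Snhg1 in those 3 libraries. Neither snoRNA gene separated the groups.

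Snhg12 held Snora16a, Snora44 and Snora61, which are box H/ACA snoRNAs, and Snord99, a box C/D snoRNA. Snora61 had 112, 124 and 119 counts in the Asxl2-/- replicates and 164, 166 and 154 in the wild type replicates, with a log2 fold change of -0.48 ± 0.184 (SE, n = 3 per group, 95% interval -0.92 to -0.03, edgeR adjusted p = 0.164). Its CPM was lower in Asxl2-/- within each file kind, and its value was near that of the host. Snord99 had a log2 fold change of -0.38 (edgeR adjusted p = 0.355), Snora16a one of -0.32 (0.393) and Snora44 one of -0.12 (0.815).

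Snord87, in a Snhg6 intron, was the 1 snoRNA gene with a positive value. It had 89, 82 and 77 counts in the Asxl2-/- replicates and 79, 53 and 42 in the wild type replicates, a log2 fold change of 0.51 (95% interval -0.26 to 1.29, edgeR adjusted p = 0.331), where Snhg6 itself had -0.16. Snora24, inside the Snhg8 exon, had 164, 157 and 159 counts against 176, 148 and 159 and a log2 fold change of -0.02 (edgeR adjusted p = 0.960). It was counted in the same bases as Snhg8, so that the assignment of reads between these 2 genes is uncertain.

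**Figure D4:**
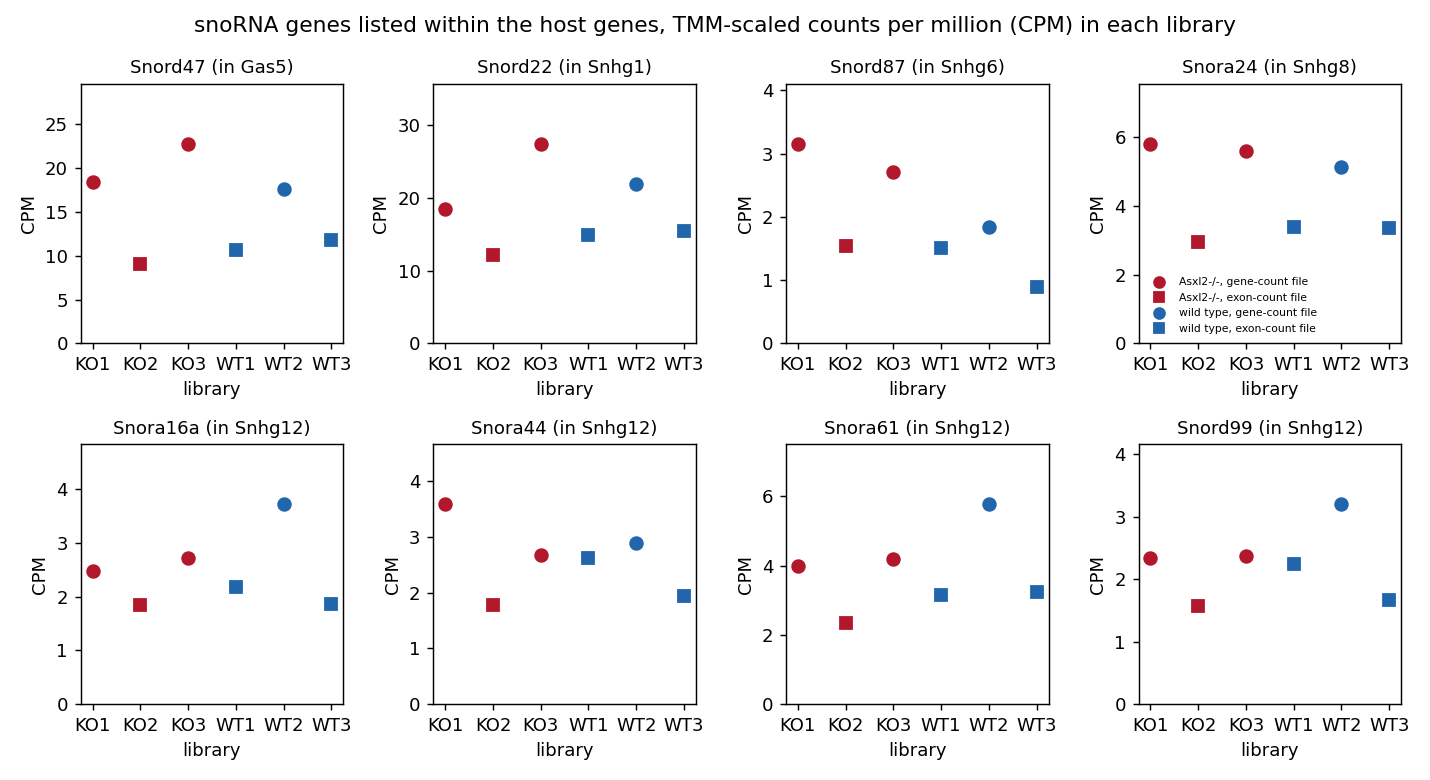
TMM-scaled CPM (vertical axis, from 0) of the 8 snoRNA genes listed within host genes, in each library (KO, Asxl2-/-; WT, wild type; number, replicate); circles are gene-count files and squares exon-count files. Exon-count libraries lie low for these single-exon genes, and Snora61 is lower in Asxl2-/- within each file kind.

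Genes near the hosts were examined to set the host values beside those of their neighbourhood. Within 25 kb of the 7 genes lay 17 other genes that were not snoRNA genes, of which 12 were tested. None of the 12 passed the threshold. At an unadjusted edgeR p under 0.05, 2 of the 12 were lower, against 12.6% of all tested genes. Of these 12 neighbours, 9 had a negative log2 fold change, and their median was -0.18. Wdr74, a ribosome-assembly factor 9513 bases from Snhg1, had the most significant value of them (log2 fold change -0.64 ± 0.135, SE, n = 3 per group, edgeR adjusted p = 0.0674, DESeq2 adjusted p = 0.00101). Rcc1, the nucleotide exchange factor of Ran, lies between Snhg3 and Snhg12, 6183 bases from the former and 20895 from the latter, and had a log2 fold change of -0.51 ± 0.123 (SE, n = 3 per group, edgeR adjusted p = 0.0789, DESeq2 adjusted p = 0.00385). Both also passed in edgeR without wild type replicate 1 (adjusted p = 0.0365 and 0.0389). Slc3a2, a subunit of amino acid transporters that starts 118 bases from Snhg1, had -0.11, and Zbtb37, beside Gas5, had 0.11. Others among the 12 were Stx5a (0.05), Phactr4 (-0.31), Trnau1ap (-0.14), Taf12 (-0.29), 1700092M07Rik (-0.58), Mir6992 (0.19) and Ndst3 (-0.19), all as log2 fold changes.

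Among other noncoding host genes, 10 were tested of 13 listed. None passed the threshold, 7 were negative, and the median log2 fold change was -0.15. At an unadjusted edgeR p under 0.05, 1 of the 10 was lower, against 12.6% of all tested genes. Zfas1, the host of several box C/D snoRNAs, had -0.29 (edgeR adjusted p = 0.160) and Snhg15 had -0.22 (0.254). Of 27 protein-coding host genes, mostly ribosomal proteins and translation factors, none passed, 24 were negative, 5 had an unadjusted p under 0.05, and the median was -0.14. Nop56, which is both a host and a core protein of box C/D particles, had -0.44 (edgeR adjusted p = 0.0974), and Atp5b, a subunit of the ATP synthase, had -0.42 (0.0969). By DESeq2, 5 of the 27 passed, Nop56 (adjusted p = 0.00878) and Atp5b (0.00713) among them, and 2 passed in edgeR without wild type replicate 1. Of all tested genes in either direction, 2302 of 14145 passed by DESeq2 and 1312 of 14060 in that edgeR fit.

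The 17 genes of the snoRNA-protein core and its assembly, 2 of which (Nop56 and Nop58) are also in the list of protein-coding hosts, included none past the threshold. All 17 were negative, and the median was -0.30. At an unadjusted edgeR p under 0.05, 9 of the 17 were lower, against 12.6% of all tested genes. Nolc1, a nucleolar chaperone of these particles, had -0.62 (edgeR adjusted p = 0.0679) and Ruvbl2, an assembly ATPase, had -0.49 (0.0741). By DESeq2, 6 of the 17 passed, including Nolc1 (adjusted p = 0.000487) and Ruvbl2 (0.00176), and 5 passed in edgeR without wild type replicate 1. Of all tested genes, 1128 of 14145 (7.97%) were called lower by DESeq2 and 548 of 14060 in that edgeR fit. Of 14 genes of nonsense-mediated decay, none passed, 11 were negative, 5 had an unadjusted p under 0.05 and the median was -0.17. Smg9, a regulator of the Smg1 kinase, had -0.32 (edgeR adjusted p = 0.0883) and Upf1, the helicase of the pathway, had -0.25 (0.127). These 2 were the decay genes that passed by DESeq2 (adjusted p = 0.0117 and 0.0254).

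The 11 genes of mTOR signalling and translation control had a median of -0.17 with none past the threshold and 8 negative. At an unadjusted edgeR p under 0.05, 2 of the 11 were lower, against 12.6% of all tested genes. Larp1, which binds terminal oligopyrimidine mRNAs, had -0.53 (edgeR adjusted p = 0.0818) and Mtor had -0.24 (0.159). Larp1 passed by DESeq2 (adjusted p = 0.00343) and in edgeR without wild type replicate 1 (0.0443). Of 8 genes of the glucocorticoid receptor and its targets, 1 passed the threshold, 2 were negative and the median was 0.16. The gene that passed was Zbtb16, a zinc-finger transcription factor, which was lower in Asxl2-/- (log2 fold change -1.0 ± 0.146, SE, n = 3 per group, edgeR adjusted p = 0.0334). Its adjusted p was 0.146 without Asxl2-/- replicate 1, 0.0889 without Asxl2-/- replicate 3, 0.164 and 0.135 without wild type replicates 2 and 3, and 0.0617 with library size alone as the scale, all by edgeR. The receptor gene Nr3c1 had -0.02 (edgeR adjusted p = 0.946). With the library size alone as the scale, fewer genes were negative in several lists: 18 of 27 protein-coding hosts, 16 of 17 particle genes, 7 of 14 decay genes and 6 of 11 mTOR genes.

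**Figure D5:**
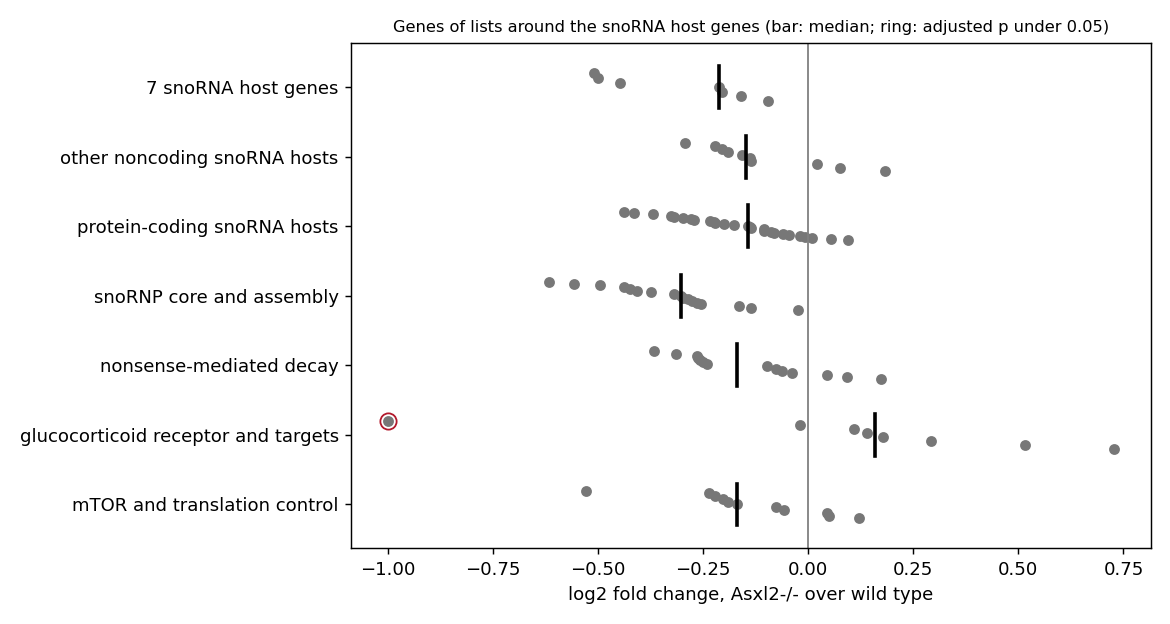
Log2 fold change, Asxl2-/- over wild type (horizontal axis), of the 7 snoRNA host genes and of 6 related gene lists; each point is 1 tested gene, the bar is the list's median, and a ring marks an adjusted p under 0.05. The host genes have a median of -0.21 and the snoRNA-protein core and assembly genes one of -0.30, and the 1 ring is Zbtb16.

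Summed B-lymphoid and erythroid markers did not overlap between the groups in which the host genes were compared, whereas the sums of the other marker lists did. The summed level of 6 B-lymphoid markers was 123 to 135 CPM in Asxl2-/- and 34.8 to 51.2 CPM in wild type, and 5 of the 6 rose. Of 6 megakaryocyte markers 3 rose, with overlapping sums of 276 to 787 CPM in Asxl2-/- and 136 to 331 CPM in wild type. Erythroid markers had sums of 364 to 520 CPM in Asxl2-/- and 734 to 1029 CPM in wild type, with none of 6 past the threshold and 5 negative. For 6 LSK markers the sums were 1144 to 1487 and 1077 to 1208 CPM, which overlapped, with 1 of 6 raised. Myeloid (2435 to 6566 against 2521 to 7784 CPM), T-cell (19.5 to 26.3 against 21.0 to 30.5) and endothelial sums (80.6 to 107 against 67.8 to 94.0) overlapped between groups, with no marker past the threshold. No marker was at 0 in all libraries, and the part of these cells in the host-gene values was not tested.

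The genes whose corrected levels ran most like the mean of the 7 host genes over the 6 libraries were Usp45 (Pearson r = 0.9986), Picalm (0.9983), Pip4k2c (0.9981), Zfp609 (0.9980) and Wdr92 (0.9975), of 14138 genes ranked. In the same order, their log2 fold changes were -0.33, -0.46, -0.46, -0.25 and -0.37, and the adjusted p from edgeR ranged from 0.132 to 0.186. The 6 points share libraries, depth and scaling, and the ranking is a description.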

How the data were processed

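RNA-seq libraries of LSK cells from 3 Asxl2-/- and 3 wild type samples were poly(A)-selected and unstranded according to the study's methods. The authors deposited raw read counts for each library on mm10 with RefSeq transcripts. The submitters' processing notes list STAR, featureCounts and DESeq2, without versions, whereas the methods name Cuffdiff for the study's own test, which was not used here. Of the deposited files, 3 hold 1 count per transcript and 3 hold 1 count per exon. Exon counts were summed per transcript, and for each symbol the transcript with the longest summed exons was kept.

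Counts were fitted with edgeR 4.0.16 (R 4.3.3), with TMM scaling, filterByExpr by group, file kind and genotype as terms, and the quasi-likelihood test with 3 residual degrees of freedom. P-values were adjusted by Benjamini-Hochberg over 14145 genes at a threshold of 0.05. CPM are TMM-scaled, and corrected levels are log2 CPM (prior count 2) with the file-kind effect removed. Standard errors were derived from the F statistics. Alternatives were other scalings and filters, DESeq2 1.42.0, limma-voom (limma 3.58.1), each file kind alone, a replicate block, other transcript choices and leaving out each library. A count of 3 in a library corresponded to 0.056 to 0.106 CPM.

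The host genes, the gene lists and the tests were chosen with earlier results of these data known. Named genes were the 7 host genes; within each list, genes past the threshold, or otherwise the 2 with the smallest p-values; snoRNA genes within the hosts; tested genes within 25 kb; and the 5 genes closest to the host mean. Nr3c1 was named after its value was seen, and 1 gene that the rule names is not reported here. Snhg11 and Snhg18 did not pass the filter, and Snhg14, which matched more than 1 symbol, was not used here. Snhg15 and Zfas1 were matched through RefSeq accessions to Gm11974 and 1500012F01Rik.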

Additional observations from a re-analysis of the deposited data

How the results depend on the processing

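No host gene passed the threshold in the edgeR fit, but with DESeq2 there were 2 (Snhg3, adjusted p = 0.0287, and Snhg12, 0.014), and 2302 of all genes passed in place of 331 (1128 of them lower, 7.97% of those tested); the cause was not tested. The 2 groups share replicate numbers. The correlations of same-numbered deviations were 0.294, -0.0077 and -0.0028, and 2 of 6 libraries correlated best with their own number. Same-numbered libraries were of opposite file kinds in each pair, so these uncorrected values cannot decide whether the numbers mark a pairing. With file kind removed, the correlations were 0.635, 1 and 0.388 (-0.335 on average between different numbers, 6 of 6 libraries closest to their own). That is at most a hint from the data. Removing file kind and group from this layout by itself fixes the pair numbered 2 at 1 and links the others. The fixed pair also enters the average of -0.335 and the 6 of 6. The labels state no pairing, so the block is given as an alternative only. A fit with the replicate number as a block and file kind leaves 1 residual degree of freedom. It called 3 host genes (Snhg3, adjusted p = 4.98e-05, Snhg5, 6.52e-06, and Snhg12, 0.00022). Of all tested genes it called 5179 of 14145 in either direction (2412 lower, 17.1%). From the lists it called 14 of 17 particle genes, 8 of 27 protein-coding hosts, 7 of 14 decay genes, 2 of 11 mTOR genes, 3 of 8 glucocorticoid genes and 1 of 10 other noncoding hosts. Wdr74 and Rcc1 were called as well. The block without file kind called 0 host genes (Snhg3 0.298, Snhg5 0.235, Snhg12 0.249), 380 genes and none of these lists' genes. With library size alone as the scale 161 genes passed. Leaving out each library in turn gave 0 host genes each time and 9 to 1312 of all genes: 9 without wild type replicate 3, 16 without Asxl2-/- replicate 1, 96 without Asxl2-/- replicate 3, 124 without wild type replicate 2, 659 without Asxl2-/- replicate 2 and 1312 without wild type replicate 1. The median of the host genes was -0.41 in the exon-count files alone and -0.41 to -0.16 with 1 library left out. In all 19 alternatives it was negative.

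Gas5 turned positive with library size alone (0.0030), without a term for file kind (0.019), in the gene-count files (0.089) and without Asxl2-/- replicate 2 (0.108). Snhg8 turned positive without that term (0.013), with or without the block. The other 5 host genes were negative in all 19 alternatives, Snhg1 at -0.0012 without Asxl2-/- replicate 2. Among snoRNA genes, signs turned with library size alone (Snord47 0.051, Snora24 0.079), without the file-kind term (Snord47 0.321, Snord22 0.150, Snora24 0.275, Snora44 0.107), in the gene-count files (0.200, 0.027, 0.138 and 0.090 in that order) and with the replicate block but no file kind (0.273, 0.102, 0.252 and 0.079). With 1 library left out, the values of the genes whose sign turned ranged from -0.29 to 0.108 for Gas5, -0.31 to 0.221 for Snord47, -0.32 to 0.067 for Snord22, -0.19 to 0.152 for Snora24, -0.36 to 0.119 for Snora44, -0.037 to 0.214 for Zbtb37 and -0.13 to 0.707 for Mir6992. Stx5a was -0.00203 with median-ratio scaling, -0.0014 with DESeq2 and -0.011 in the gene-count files, where Ndst3 was 0.232. The causes were not tested. Of 133 alternative values of the host genes, 116 were counted as unchanged, 5 newly passed the threshold, 6 turned sign, and 6 kept their sign but moved in size. Of 676 for 36 other named genes, these numbers were 587, 35, 29 and 19, and 6 no longer passed. Values counted as unchanged can still differ much in size from the main fit. Snhg1 was so counted at -0.0012 without Asxl2-/- replicate 2 and at -0.41 without wild type replicate 2.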
